A study of Mus musculus and Homo sapiens with 27 samples.

Results

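The genes described here are 33 interferon-stimulated, antigen processing and interferon signalling genes on the human and mouse lymphochip, a spotted array of genes expressed in lymphocytes. They were chosen by gene symbol: 29 human genes of the 4604 named on the human array and 4 mouse genes, Irf1, Tap1, Igtp and Sp100, of the 331 named on the mouse array. All 33 symbols were found, on 84 human and 7 mouse features (spots with their own probe). The study asked what graded amounts of the transcription factor IRF4 do in B cells. On 4 human arrays, OCI-Ly7 cells with the Vxy-IRF4 vector, which expresses human IRF4, were set against OCI-Ly7 cells with the empty Vxypuro vector, at day 2 (1 array), day 3 (2 arrays) and day 5 (1 array). OCI-Ly7 is a line of diffuse large B-cell lymphoma of the germinal centre B-cell-like kind, and the design text calls its control non-transduced where the labels call it an empty vector. On 23 mouse arrays, splenic B cells of adult Balb-c mice without Irf4 (Irf4 -/-, KO; 3 arrays at each of 0, 24, 48 and 96 h) or with 1 intact copy (Irf4 +/-, HET; 3, 2, 2 and 4 arrays) were taken unstimulated (0 h) or after culture with lipopolysaccharide (LPS). Each was set against 1 pool of RNA from B-cell, T-cell and monocyte lines. No wild-type mouse was among these groups, and OCI-Ly7 is 1 line, so no array shows a B cell with both Irf4 copies or a second lymphoma line. In whole-culture RNA, fewer cells of a type and less RNA per cell cannot be told apart.

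Interferons bind cell-surface receptors and, through JAK kinases, switch on a broad programme of genes. Type I interferon acts through a complex that contains IRF9 and binds the interferon-stimulated response element (ISRE), and interferon gamma acts through the gamma-activated site (GAS). The induced genes encode antiviral effectors, GTPases, nuclear body proteins and the machinery that cuts peptides and carries them to MHC class I molecules. IRF4 belongs to the same family of DNA-binding proteins as IRF1, IRF2 and IRF9, and in B cells it often binds with PU.1 at ETS-IRF composite elements.

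Promoter sequence was at hand for the 4 mouse genes, from RefSeq on the GRCm38.p6 build, as windows of 250 bases before to 50 bases after each gene start. The 150 bases before the first listed start are shown here for Irf1, the member that fell most often after LPS, for Tap1, which was low at 96 h, and for Igtp and Sp100, neither of which passed a test. Capitals mark matches to an ISRE (GAAA, any 2 bases, GAAA), a GAS (TTC, any 3 bases, GAA) or an ETS-IRF composite element (GGAA, any 2 bases, GAAA) on either strand.
Irf1, chr11:53769864-53770013, + strand: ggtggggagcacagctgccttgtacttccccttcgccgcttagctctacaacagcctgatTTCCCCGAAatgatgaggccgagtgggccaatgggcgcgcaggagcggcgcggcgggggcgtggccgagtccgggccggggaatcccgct
Tap1, chr17:34187406-34187555, + strand: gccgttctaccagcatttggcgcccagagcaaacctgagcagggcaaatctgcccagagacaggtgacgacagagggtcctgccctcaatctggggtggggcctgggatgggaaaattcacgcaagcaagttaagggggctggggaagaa
Igtp, chr11:58199406-58199555, + strand: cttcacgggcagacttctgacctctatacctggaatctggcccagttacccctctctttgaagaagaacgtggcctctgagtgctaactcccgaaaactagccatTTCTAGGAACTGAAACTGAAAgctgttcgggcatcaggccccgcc
Sp100, chr1:85649838-85649987, + strand: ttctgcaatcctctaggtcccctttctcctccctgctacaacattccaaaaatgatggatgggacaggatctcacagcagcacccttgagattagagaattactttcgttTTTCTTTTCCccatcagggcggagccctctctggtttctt
The Igtp window held 1 match to each of the 3 motifs, and they overlapped in 1 run that began 45 bases before the start. Irf1 held a GAS match, TTCCCCGAA, 90 bases before the start, and Sp100 held an ETS-IRF match 40 bases before the start on the opposite strand. In the whole Tap1 window these letters were not found. Its 300 bases share 275 with the window of the neighbouring immunoproteasome gene Psmb9, which is read from the opposite strand. Among 32841 mouse promoter windows of the same length, 3.44% held the ISRE letters, 8.3% the GAS letters and 2.72% the ETS-IRF letters. Irf1 and Sp100 each have a further listed window: the second of Irf1 held none of the 3 motifs, and the second of Sp100 overlaps the first and held the same match. A match of letters is a description of the sequence and not a measured binding site.

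Values are log2 ratios with the median of each array set to 0, and a gene is the mean of its features. The direction of the ratio is not given in the sources used here and was taken as Cy5 over Cy3, that is IRF4 vector over empty vector and B cells over pool. On the mouse arrays Cd79b, a B-cell receptor gene, lay above the pool on all 23. The T-cell gene Cd3g lay below the pool on all 23. Gzma, the other T and NK cell gene measured, lay on both sides of the pool, from -0.98 to 0.51 on the HET arrays. For the human arrays the direction is likely from the same labels and dyes, but the check by IRF4 itself was not met. The 4 IRF4 features averaged -0.03 (SE 0.30, 4 arrays), and 3 of them lay below 0 on 3 of the 4 arrays. The remaining feature lay above 0 on all 4 arrays, with a mean of 0.69. On day 3 replicate 1 all 4 features lay above 0, between 0.59 and 0.77. Were the direction reversed, each human sign below would turn. The mean of the IRF4 features would stay near 0 either way, so over the 4 arrays it does not show raised IRF4 RNA. Whether these features detect IRF4 RNA from the vector was not tested. The human arrays correlated with each other at 0.31 to 0.46 (Pearson r over all features, a description). Of the mouse arrays, 5 carry the lowest numbers in the authors' database, HET 0 h replicates 1 and 2, KO 0 h replicate 1 and replicate 1 of both genotypes at 24 h. These 5 were spread more widely than most, with SDs of 1.35 to 3.10 against 0.975 to 2.38 on the other 18. The genotype is KO in the title but Het in the channel fields of 3 arrays, KO 24 h replicate 3 and the first and the third KO 48 h replicate, which were grouped by title. Jchain, the immunoglobulin joining chain gene, lay between -4.00 and -2.98 on these 3, between -10.27 and -2.59 on the other 9 KO arrays and between -2.02 and 4.18 on the 11 HET arrays.

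In OCI-Ly7 cells none of the 29 members passed the test between IRF4 vector and empty vector. The members lay on both sides of 0: 12 of 29 (41.4%) had a mean ratio above 0, against 43.3% of all named genes, and their median was -0.18, against -0.14 for all. In the deposited values before centring, 8 of 29 lay above 0 and the medians were -0.37 and -0.33. The test was limma's moderated test of the ratio against 0 over the 4 arrays, with Benjamini-Hochberg adjustment over all 4604 genes and a threshold of 0.05. By the labels, the vector and control RNAs kept the same dyes on every array. A dye effect on a feature therefore cannot be told apart from an effect of the vector. Over all genes 5 passed (0.109%), 2 higher (0.0434%) and 3 lower (0.0652%). After quantile normalization the split over all genes was 21 higher and 73 lower, and again no member passed. At an unadjusted p under 0.05, 5 of the 29 members stood out (OAS1, EIF2AK2, BST2, XAF1 and STAT3), against 23.9% of all genes. Of the members, 6 lay above 0 on all 4 arrays (background 17%) and 6 below 0 on all 4 (background 21%). The members' shares were close to the background of all genes, so they do not set the members apart.

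**Figure D1:**
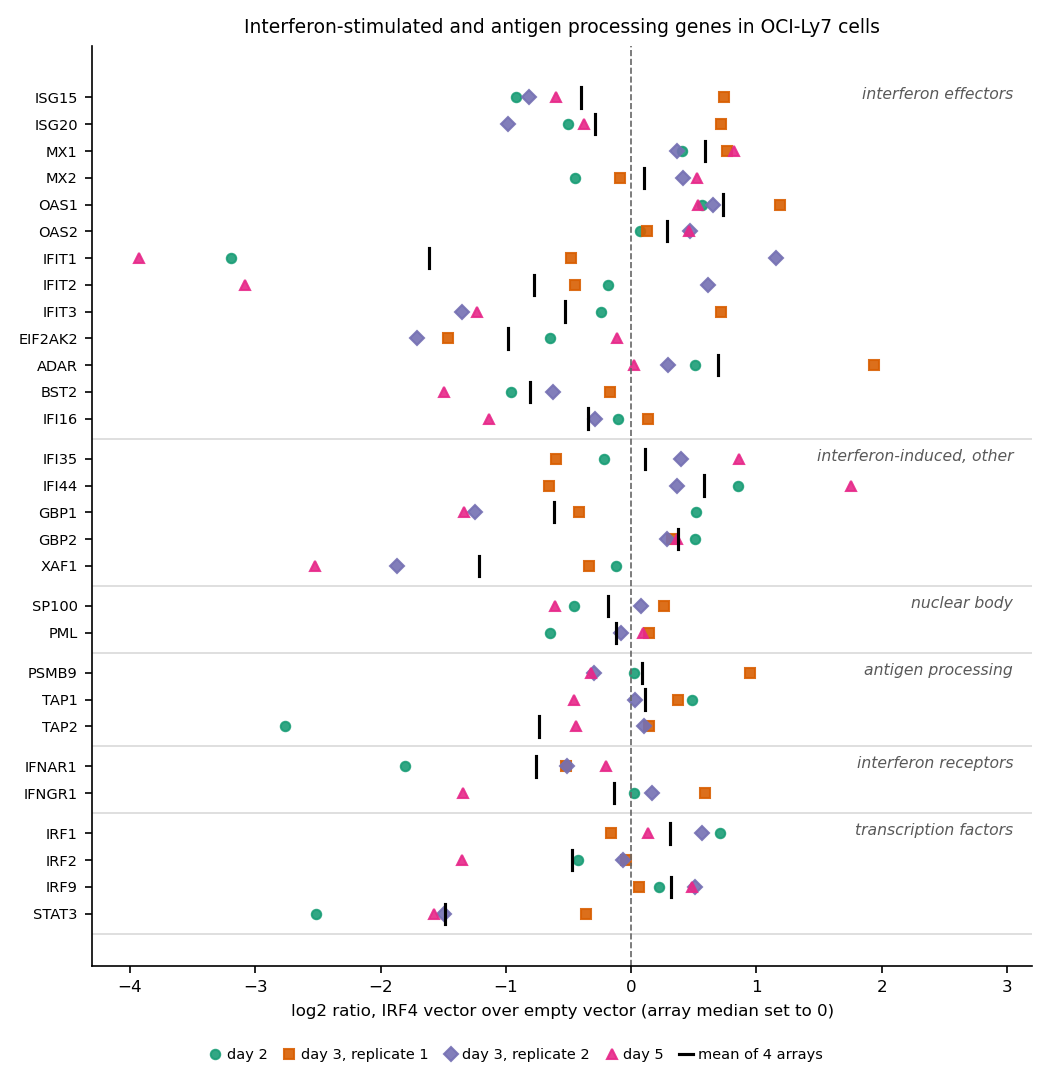
Log2 ratio of the IRF4 vector over the empty vector for the 29 human genes, grouped by role, on each of the 4 OCI-Ly7 arrays; black bars are means. Most genes have arrays on both sides of 0, and the values of IFIT1 run from -3.93 to 1.16.

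Among the antiviral effectors, OAS1, OAS2 and MX1 lay above 0 on each array as gene means. Another synthetase gene, OAS3, is no member and was named after its values were seen; it lay below 0 on all 4 arrays, with a mean of -0.47. OAS1, which makes the oligoadenylates that activate RNase L, had log2 ratios of 0.57 at day 2, 1.19 and 0.65 on the day 3 arrays and 0.54 at day 5. All 4 were above 0, and the highest was day 3 replicate 1. Its mean was 0.74 (SE 0.27), with an adjusted p of 0.183 in limma. All 6 of its features had a mean above 0, between 0.29 and 1.20. OAS2, a second synthetase, had 0.07 at day 2, 0.13 and 0.47 at day 3 and 0.46 at day 5, so its lowest arrays were near 0. MX1, a GTPase that blocks influenza virus, had 0.41 at day 2, 0.77 and 0.37 at day 3 and 0.82 at day 5. The features of MX1 had means of 0.76, 1.28 and -0.27, and the last lay above 0 on 1 array only. MX2, the paralogue of MX1 known for restricting HIV, had arrays on both sides of 0, from -0.44 to 0.52. ADAR, which edits adenosine to inosine in double-stranded RNA, ran from 0.03 at day 5 to 1.94 on day 3 replicate 1, and that array lay far above the other 3.

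Other effectors lay below 0. EIF2AK2, the kinase PKR that halts translation on sensing double-stranded RNA, had -0.65 at day 2, -1.46 and -1.71 at day 3 and -0.11 at day 5. Its mean was -0.98 (SE 0.35, adjusted p = 0.183 in limma). The features of EIF2AK2 had means of -1.63 and -0.335 and lay at -3.78 and 0.35 on day 3 replicate 2. The latter feature lay above 0 on 2 arrays. BST2 (tetherin), which holds budding virus at the cell surface, had -0.96 at day 2, -0.17 and -0.62 at day 3 and -1.49 at day 5. Its mean was -0.81 (adjusted p = 0.193 in limma), and all 4 arrays were below 0, with day 5 the lowest. XAF1, an interferon-induced promoter of apoptosis, had -0.12 at day 2, -0.34 and -1.87 at day 3 and -2.53 at day 5. Its mean was -1.21 (adjusted p = 0.198 in limma), with the first and the last day furthest apart. The features of XAF1 differed, and 1 had 1.62 at day 2, -1.52 and -4.07 at day 3 and -3.81 at day 5. The other had -1.85, 0.84, 0.33 and -1.24 on the same arrays.

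The IFIT proteins bind foreign RNA and block its translation, and IFIT1 and IFIT2 had the largest SDs between arrays of the 29 members (2.37 and 1.60). IFIT1 had -3.20 at day 2, -0.48 and 1.16 at day 3 and -3.93 at day 5. IFIT2 had -0.19 at day 2, -0.45 and 0.61 at day 3 and -3.08 at day 5. IFIT3 had -0.24 at day 2, 0.72 and -1.35 at day 3 and -1.23 at day 5. For each of the 3 the repeats of day 3 lay on opposite sides of 0, so the arrays do not give 1 sign. ISG15, a ubiquitin-like modifier, had -0.92 at day 2, 0.74 and -0.81 at day 3 and -0.60 at day 5. Its 3 features repeated this pattern, each above 0 on day 3 replicate 1 and below 0 on the other 3 arrays. ISG20, an exonuclease, was as a gene mean also above 0 on that array only, at 0.71, with the others between -0.98 and -0.38. Its features differed: that with a mean of 0.66 lay above 0 on all 4 arrays, and that at -1.89 below 0 on all 4. The others averaged 0.24 and -0.16. IFI16, a sensor of DNA, averaged -0.35, from -1.14 at day 5 to 0.14 on day 3 replicate 1.

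Of the other induced genes, GBP2, a guanylate-binding GTPase, was the steadiest member as a gene mean (SD 0.098). It had 0.51 at day 2, 0.33 and 0.28 at day 3 and 0.37 at day 5. Its features were less even, with SDs of 0.52 and 0.61 and means of 0.76 and -0.02. On day 3 replicate 1 they lay at 1.53 and -0.88. GBP1, a relative of GBP2, ran from -1.33 at day 5 to 0.52 at day 2. IFI44 had 0.86 at day 2, -0.66 and 0.36 at day 3 and 1.75 at day 5, and IFI35 ran from -0.60 to 0.86. PML and SP100, both components of the nuclear bodies named after PML, averaged -0.12 and -0.18, each above 0 on 2 arrays and below 0 on 2.

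The antigen processing genes were near 0 or uneven. PSMB9, an interferon-inducible subunit of the immunoproteasome, had 0.02 at day 2, 0.95 and -0.30 at day 3 and -0.32 at day 5. TAP1, one chain of the transporter that moves peptides into the endoplasmic reticulum, had 0.49 at day 2, 0.38 and 0.03 at day 3 and -0.46 at day 5. TAP2, the other chain, had -2.77 at day 2, 0.14 and 0.11 at day 3 and -0.44 at day 5. TAP1 and TAP2 thus lay far apart at day 2, and closer on the later arrays. The day 2 value of TAP2 is the mean of 1 feature at -5.54 and another at 0.01. The latter feature lay above 0 on all 4 arrays, with a mean of 0.31.

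Among receptors and factors, STAT3 had the lowest p of the 29 members. STAT3, which carries signals of interferons and of many cytokines, had -2.51 at day 2, -0.36 and -1.49 at day 3 and -1.58 at day 5. All 4 values were below 0, with day 3 replicate 1 the closest to it, and both of its features had means below 0 (-1.30 and -1.67). Its mean was -1.49 (SE 0.39, adjusted p = 0.137 in limma). With array weights, an estimate that did not reach its convergence tolerance on 4 arrays, STAT3 was among 262 genes that passed (-1.68, adjusted p = 0.0400). IFNAR1 encodes a chain of the type I interferon receptor. As a gene mean IFNAR1 lay below 0 on all 4 arrays, from -1.81 at day 2 to -0.20 at day 5 (mean -0.76, adjusted p = 0.239 in limma). Its features disagreed: 1, with a mean of 0.35, lay above 0 on all 4 arrays. Those with means of -1.60, -1.54 and -1.43 lay below 0 on all 4, and those at -0.29 and -0.04 lay on both sides. IFNGR1, the ligand-binding chain of the interferon gamma receptor, ran from -1.34 at day 5 to 0.59 on day 3 replicate 1. IRF9 helps the type I interferon complex bind the ISRE. As a gene mean it had 0.22 at day 2, 0.07 and 0.51 at day 3 and 0.49 at day 5, above 0 throughout. Its features did not share that sign. Those with means of 0.78 and 0.92 lay above 0 on all 4 arrays, and another, at -0.73, lay below 0 on all 4. The other IRF genes had no common side. IRF1, an activator that interferon gamma induces, averaged 0.31, from -0.16 to 0.71. IRF2, which competes with IRF1 for the same sites, averaged -0.47, from -1.35 at day 5 to -0.04. Its features had means of 0.41 (above 0 on all 4 arrays), 0.30 and -2.11 (below 0 on all 4), so its sign rests on the last.

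A slope over days 2, 3 and 5 passed for none of the 29 members and for 0% of the 4604 genes in limma. The only member with an unadjusted p under 0.05 was IFIT2, at -1.10 log2 units per day (adjusted p = 0.288), against 12.3% of all genes at that level. Its slope rests on the day 5 array, and the next member by p was XAF1, at -0.78 per day (adjusted p = 0.410). The IFIT1 slope was 3.54 per day without the day 5 array (adjusted p = 0.0354) and -2.13 without the day 2 array (adjusted p = 0.00371), so its sign depends on which day is kept.

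Features of 1 gene often disagreed, which limits what a gene mean says. Of the 25 members with several features, 10 (40%) had all feature means on 1 side of 0, against 46.0% of 2674 such genes on the array. The range between feature means had a median of 1.25 among the members and 1.05 among all. SP100 had 7 features with means from -2.96 to 1.21: 3 lay above 0 on all 4 arrays and 2 below 0 on all 4. IFI16 had 6 features from -2.09 to 1.85. ADAR, ISG15 and IFIT2 were the most even, with feature means within 0.04, 0.17 and 0.19 of each other. With each of the 15246 features tested on its own, none passed in limma, and 20 of the 84 member features had an unadjusted p under 0.05, against 3437 of all features. Whether the disagreeing features detect other transcripts was not tested.

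**Figure D2:**
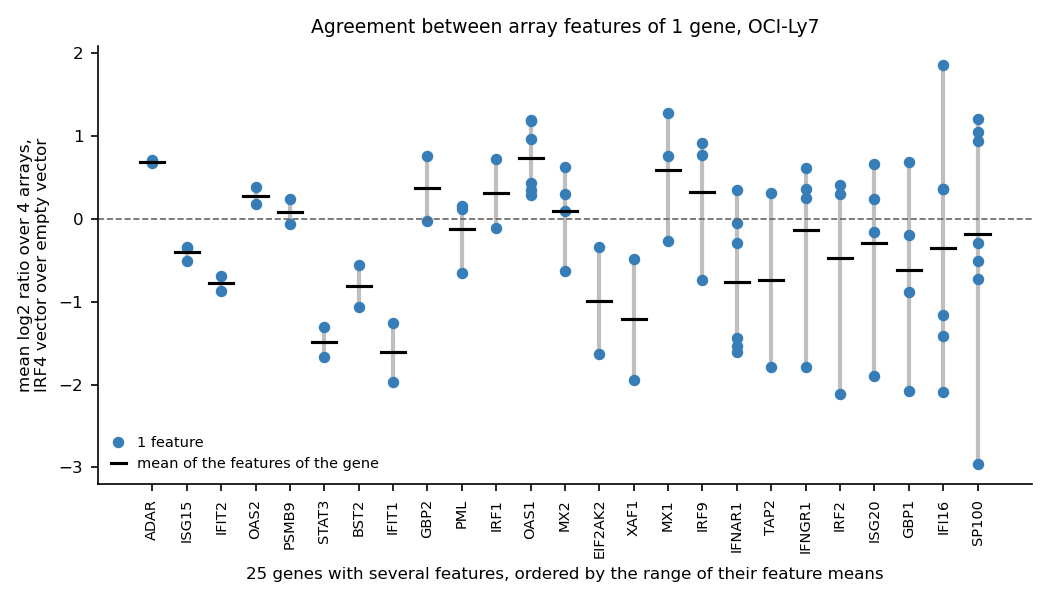
Mean log2 ratio over 4 arrays of each feature (blue), IRF4 vector over empty vector, for the 25 human members with several features; black bars are the gene means. ADAR, ISG15 and IFIT2 agree between features, while SP100 spans -2.96 to 1.21.

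For the rest of the pathway, 3 gene lists were read, none sharing a gene with the members. In the MHC class I and peptide supply list, 9 of 16 genes had a mean above 0 and none passed the test; the list median was 0.47. HLA-B, a class I heavy chain, had 1.34 at day 2, 3.13 and 1.61 at day 3 and 1.87 at day 5 (mean 1.99, adjusted p = 0.119 in limma). B2M, the light chain shared by class I molecules, averaged 1.26 (adjusted p = 0.134), and ERAP1, which trims peptides, averaged -1.50 (adjusted p = 0.182). Day 3 replicate 1 stood apart here, with a list median of 1.40 against -0.02 to 0.29 on the other 3 arrays.

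Among 34 other interferon-stimulated genes, 13 lay above 0, none passed, and the median was -0.33. Of these 34 genes, 13 lay below 0 on all 4 arrays, against 21% of all genes. The furthest from 0 were LAP3, a leucine aminopeptidase (mean -2.63, adjusted p = 0.143 in limma), CMPK2, a mitochondrial nucleotide kinase (-2.20, adjusted p = 0.102), and IFITM3, which blocks virus entry (-1.92, adjusted p = 0.133). All 3 were below 0 on all 4 arrays. In the interferon signalling chain, 4 of 12 genes lay above 0 and none passed, with a median of -0.28. Its furthest were JAK2, a receptor-bound kinase (-1.88, adjusted p = 0.168 in limma), IFNB1, which encodes interferon beta (-1.02, adjusted p = 0.407), and IFNGR2, a chain of the interferon gamma receptor (0.87, adjusted p = 0.157).

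**Figure D3:**
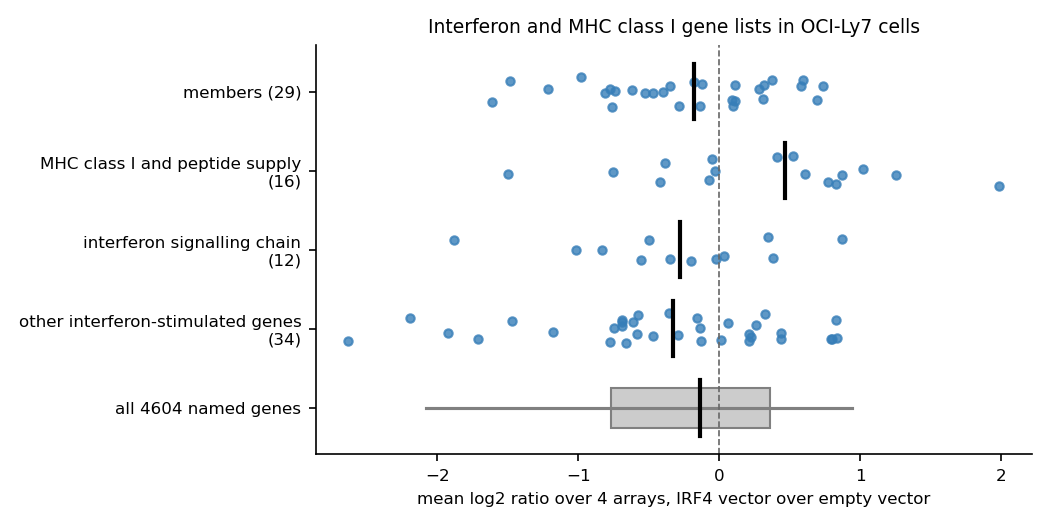
Mean log2 ratio over 4 arrays, IRF4 vector over empty vector, of each gene (points) in the members and 3 further lists, with medians as black bars. For all 4604 named genes the box spans the 25th to 75th percentiles and the line the 5th to 95th; the members centre near all genes, and the MHC class I list has a median of 0.47.

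In mouse B cells, Irf1 was lower after LPS than before it in HET cells at every time, and Tap1 was lower at 96 h. Igtp and Sp100 passed no test in any comparison. No member passed between KO and HET at any time. These tests came from 1 limma fit over all 23 arrays, adjusted over the 331 named genes.

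Irf1, the activator that interferon gamma induces, was highest before LPS in both genotypes. In KO cells it had log2 ratios over the pool of 1.73, 1.37 and 1.33 at 0 h, 0.11, 0.27 and 0.54 at 24 h, 1.03, 0.82 and 0.78 at 48 h, and 0.53, 0.63 and 0.92 at 96 h. In HET cells it had 2.39, 2.51 and 1.42 at 0 h, 0.71 and 0.64 at 24 h, 0.48 and -0.07 at 48 h, and from 0.21 to 0.91 (median 0.60) at 96 h. Every stimulated array of either genotype lay below every 0 h array of the same genotype. Over all genes such a gap downwards was found for 13.3%, 6.65% and 48.3% at 24, 48 and 96 h in KO cells and for 8.76%, 10.3% and 13% in HET cells.

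In HET cells Irf1 fell by 1.42 on the log2 scale at 24 h (SE 0.35, 2.68-fold, adjusted p = 0.0121 in limma), where 2.72% of genes were called lower. It fell by 1.90 at 48 h (SE 0.35, 3.73-fold, adjusted p = 0.00463), where 2.42% were called lower, and by 1.52 at 96 h (SE 0.29, 2.87-fold, adjusted p = 0.00258), where 17.8% were. In either direction 13.3%, 8.46% and 25.7% of genes were called at the 3 times. Both Irf1 features passed at each of the 3 times when features were tested on their own. In KO cells the change was -1.17 at 24 h (adjusted p = 0.0577 in limma), -0.60 at 48 h (adjusted p = 0.690) and -0.79 at 96 h (adjusted p = 0.170), and none passed. Over all genes 1.51%, 1.51% and 0.906% were called in either direction in KO cells.

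The calls of Irf1 depended on how the arrays were fitted. With only the compared groups in the fit none of the 3 passed (adjusted p = 0.543, 0.638 and 0.124 at 24, 48 and 96 h). That fit called 0, 0 and 2 of all 331 genes at these times, against 44, 28 and 85 in the main fit. The 24 h call also ended after quantile normalization (adjusted p = 0.0658), with array weights (adjusted p = 0.110) and without HET 24 h replicate 1 (-1.46, adjusted p = 0.121). Over all genes these settings called 17, 10 and 5 at 24 h, fewer than the main fit. HET 0 h replicates 1 and 2, both of the lowest database numbers, were the highest of all 23 for Irf1, at 2.39 and 2.51. The same 2 arrays were also the highest for the B-cell genes Cd79b (3.82 and 4.05) and Bank1 (5.16 and 5.15). Leaving out either of them alone ended none of the 3 calls. Without the lowest range of numbers, 5 arrays in all with HET 24 h replicate 1 among them, 1 HET 0 h array was left, at 1.42, and Irf1 fell by 1.21 at 48 h (adjusted p = 0.0188 in limma), while it was -0.77 at 24 h (adjusted p = 0.220) and -0.84 at 96 h (adjusted p = 0.124). Within the range of the highest numbers, the 4 HET 96 h arrays averaged 0.58 against 1.42 on the 1 HET 0 h array, and the 3 KO 96 h arrays averaged 0.69 against 1.33 on the 1 KO 0 h array. No HET array after LPS lay above that HET 0 h array. The mean of the T and NK cell markers Cd3g and Gzma ran from -2.10 to -0.39 on the HET 96 h arrays, against -1.57 to -0.04 on the HET 0 h arrays. That of the myeloid markers Tyrobp and Ncf1 ran from -0.16 to 0.80 on the HET 96 h arrays, against -3.41 to 0.71 on the HET 0 h arrays. The plasma cell list averaged 1.02 to 1.27 on the HET 96 h arrays, against -0.91 to 0.23 on the HET 0 h arrays. From 0 to 96 h, 6 of its 8 genes had a change above 0. Of the 8, 4 were called higher, against 26 of all 331 genes, and Mzb1 and Ell2 were among them. Mzb1 was at 5.47 (adjusted p = 0.0201 in limma), with HET 0 h arrays at -4.56, -8.60 and -0.07. Ell2 was at 2.53 (adjusted p = 0.0218), with HET 0 h arrays at 0.43, -0.12 and -4.23. Sdc1 had -3.16, -0.78 and 3.79 at 0 h and -3.10 to -1.42 at 96 h in HET cells. The B-cell gene Bank1 fell by 1.03 (adjusted p = 0.0366). The part of these cell types in the 96 h values of Irf1 and Tap1 was not tested.

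**Figure D4:**
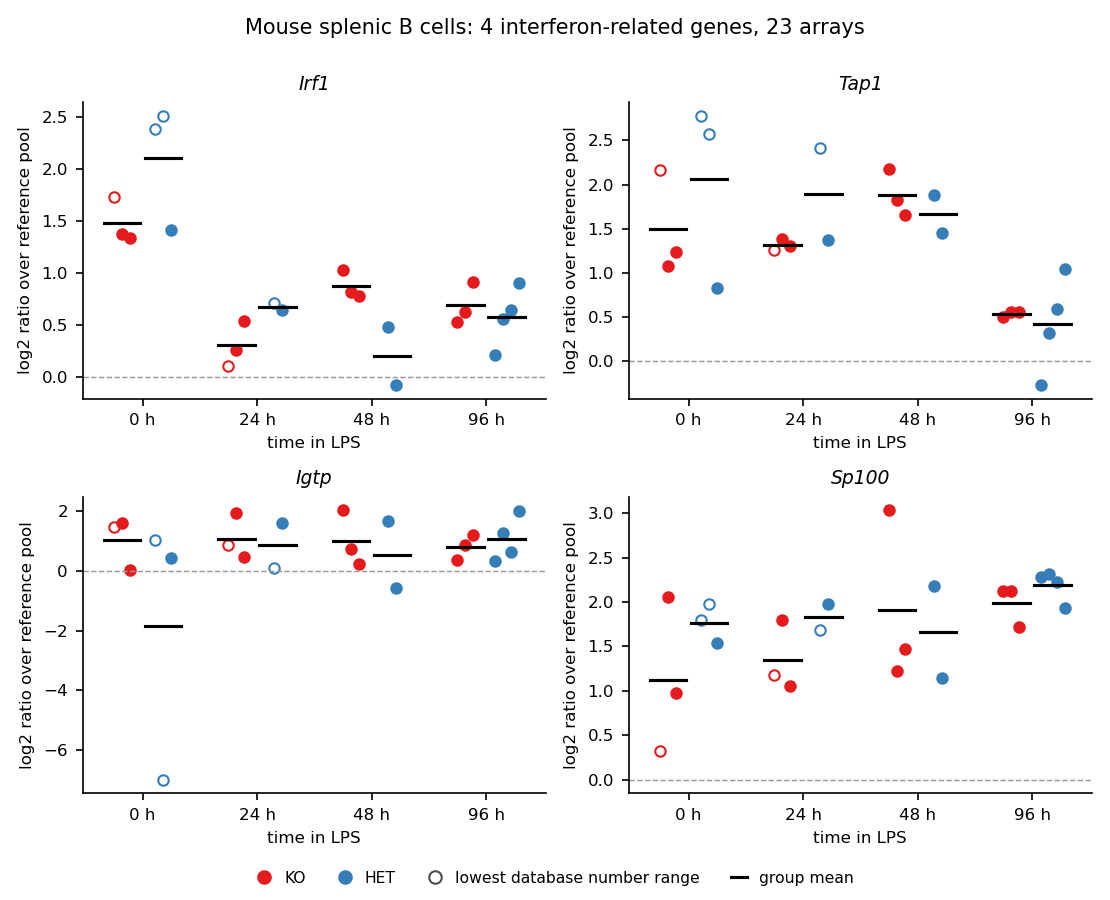
Log2 ratio over the reference pool of Irf1, Tap1, Igtp and Sp100 on 23 mouse arrays, by time in LPS and genotype (KO red, HET blue); open points are the 5 arrays of the lowest database numbers and bars are means. Irf1 lies highest at 0 h in both genotypes, Tap1 is low at 96 h in both, and 1 HET 0 h array of Igtp lies at -6.99.

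The 96 h change must be read beside the shift of all genes. The median change of the 331 genes was -0.60 in KO cells and -0.42 in HET cells at 96 h, but 0.02 and 0.20 when the median of the named features alone was set to 0. With that centring Irf1 was at -0.17 in KO cells and fell by 0.90 in HET cells at 96 h. The split of all HET calls at 96 h was 26 higher and 59 lower, and 54 higher and 39 lower with that centring. At 24 h it was 35 and 9, and 55 and 44 with that centring; at 48 h it was 20 and 8, and 39 and 27. Irf1 was lower than the median of all genes in HET cells under both centrings at all 3 times.

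Irf1 did not pass the test between the genotypes. KO minus HET was -0.63 at 0 h (adjusted p = 0.313 in limma), -0.37 at 24 h (adjusted p = 0.565), 0.67 at 48 h (adjusted p = 0.997) and 0.11 at 96 h (adjusted p = 0.993). All 3 KO arrays lay below both HET arrays at 24 h, as for 19.3% of genes, and above both at 48 h, as for 8.46%. The share of genes called in either direction was 1.81% at 0 h, 0% at 24 and 48 h and 2.72% at 96 h. None of the 4 members had an unadjusted p under 0.05 at any of the 4 times, against 17.2%, 9.37%, 2.72% and 9.06% of all genes. Averaged over 24, 48 and 96 h, KO minus HET of Irf1 was 0.14 (adjusted p = 0.793), where 2.42% of genes were called. For Irf1, the response to LPS differed most between the genotypes at 48 h, by 1.30 (SE 0.47, unadjusted p = 0.0121, adjusted p = 0.448), and 0% of genes passed at any time. Without HET 0 h replicate 3 it was 1.64 (adjusted p = 0.0229), and 1.28 with the median of the named features set to 0 (adjusted p = 0.0402).

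Tap1 encodes a chain of the transporter that moves peptides into the endoplasmic reticulum. It stayed near its starting level to 48 h and was low at 96 h. In KO cells it had 2.16, 1.07 and 1.24 at 0 h, 1.25, 1.39 and 1.30 at 24 h, 2.18, 1.83 and 1.65 at 48 h, and 0.50, 0.56 and 0.55 at 96 h. In HET cells it had 2.78, 2.57 and 0.83 at 0 h, 2.42 and 1.37 at 24 h, 1.88 and 1.45 at 48 h, and -0.27, 0.32, 0.59 and 1.04 at 96 h. At 96 h every array lay below every 24 h and 48 h array of its genotype, as for 29.3% of genes in KO cells and 35% in HET cells. The 96 h arrays of KO cells also lay below all 3 KO 0 h arrays, as for 48.3% of genes, while those of HET cells overlapped with HET 0 h replicate 3, at 0.83.

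From 0 to 96 h Tap1 changed by -0.96 in KO cells (SE 0.47, adjusted p = 0.205 in limma) and fell by 1.64 in HET cells (SE 0.44, 3.12-fold, adjusted p = 0.0151), where 17.8% of genes were called lower. With the median of the named features set to 0, these were -0.34 in KO cells, not past the threshold, and -1.02 in HET cells, where it still passed. Tap1 in HET cells no longer passed when HET 0 h replicate 1 (-1.28, adjusted p = 0.0717) or 2 (-1.38, adjusted p = 0.0697) was left out. Without the lowest database numbers, which left 1 HET 0 h array, the HET change was -0.41. With the number range as a factor it was -0.92 (adjusted p = 0.170 in limma), and 20 of all genes were called. With only the compared groups in the fit the adjusted p was 0.159, and 2 of all genes were called. A comparison of 96 h with the mean of 24 and 48 h was added after these values were seen. It gave -1.06 in KO cells (adjusted p = 0.101 in limma; 10.6% of genes called) and a fall of 1.36 in HET cells (adjusted p = 0.0176; 30.2% called, 26.9% lower). With the median of the named features set to 0, this HET change was -0.56 (adjusted p = 0.0629), the median of all genes was 0.25 in place of -0.54, and the split of calls was 51 higher and 42 lower in place of 11 and 89. KO minus HET of Tap1 lay between -0.58 and 0.22 at the 4 times, with adjusted p from 0.536 to 0.997.

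**Figure D5:**
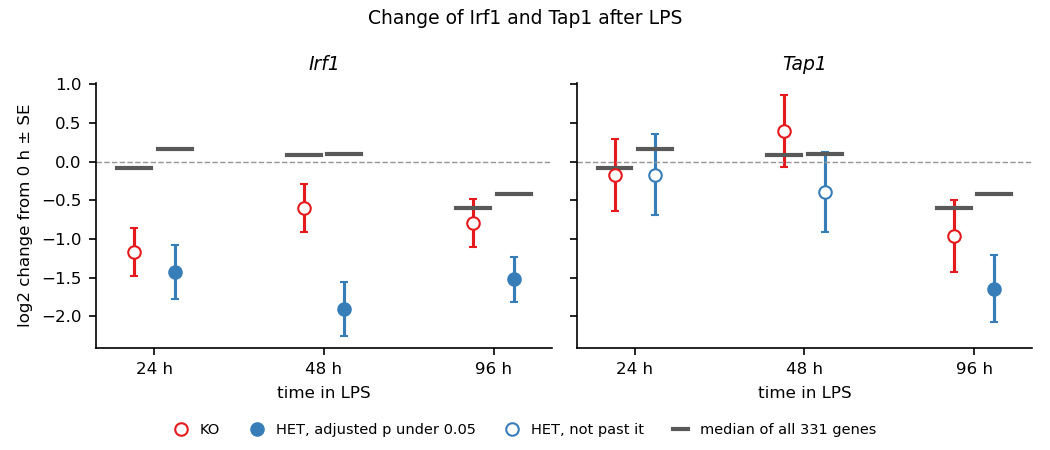
Log2 change from 0 h, with its SE, of Irf1 and Tap1 at 24, 48 and 96 h of LPS in KO (red) and HET (blue) cells; filled points passed an adjusted p of 0.05 and grey bars are the median change of all 331 genes. Irf1 in HET cells lies at -1.42, -1.90 and -1.52, below the grey bars at each time.

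Igtp, an interferon-induced GTPase of the immunity-related family, was above the pool on most arrays and passed no test. In KO cells it had 1.47, 1.59 and 0.04 at 0 h and lay between 0.22 and 2.02 on the 9 stimulated arrays. In HET cells it had 1.04, -6.99 and 0.42 at 0 h, 0.11 and 1.60 at 24 h, 1.66 and -0.59 at 48 h, and 0.32 to 2.01 at 96 h. The value of -6.99 stood far below all others, and both features of the gene were low on that array, at -8.55 and -5.43. The HET changes from 0 h rest on it and were 2.70, 2.38 and 2.90 at 24, 48 and 96 h (adjusted p = 0.250, 0.334 and 0.105 in limma). Without that array they were 0.13, -0.19 and 0.32.

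Sp100, the nuclear body gene, lay above the pool on all 23 arrays, between 0.32 and 3.03. Its means in KO cells were 1.12, 1.35, 1.91 and 1.99 at 0, 24, 48 and 96 h, and in HET cells 1.77, 1.84, 1.66 and 2.19. The 96 h change was 0.87 in KO cells (adjusted p = 0.258 in limma) and 0.42 in HET cells (adjusted p = 0.479). The 96 h arrays overlapped the 0 h arrays in both genotypes.

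Other genes of class I peptide supply on the mouse array were B2m, Pdia3, Psmb10 and Psme1, and none of the 4 passed the test between KO and HET at any time. Pdia3, a chaperone of class I assembly, rose by 3.16 in HET cells at 24 h (adjusted p = 0.0234 in limma), with 1 HET 0 h array at -4.82. Psmb10, an immunoproteasome subunit like PSMB9, was -0.89 at 96 h against 24 and 48 h in KO cells (adjusted p = 0.129) and fell by 1.06 in HET cells (adjusted p = 0.0383). In this comparison, added after values were seen, 26.9% of all genes were called lower in HET cells. The median of all genes was -0.48 in KO cells and -0.54 in HET cells. B2m passed no test. The other interferon-stimulated genes Lgals3bp and Samhd1 also passed none, and no gene of the interferon signalling list was named on the mouse array. The lowest 0 h array for B2m and Psmb10 in HET cells was replicate 3, at 1.02 and 0.67, and replicates 1 and 2 lay at 2.74 and 2.70 for B2m and at 2.36 and 2.18 for Psmb10. Tap1 showed the same order of these arrays.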

How the data were processed

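The authors deposited 1 log2 ratio per feature and array, 15246 human and 12292 mouse features with 0 missing; how they were background-corrected and normalized is not given in the sources used here, and single-channel signals were not used. Per the labels, Trizol RNA was reverse transcribed with Cy5 (sample) or Cy3 (control or pool). The log base was read from the span of the values. Symbols came from the platform annotation; 10169 human and 559 mouse features had 1 symbol, 4 and 44 had several, and 5073 and 11689 had none. The median of each array was set to 0, and the features of a gene were averaged. limma 3.58.1 in R 4.3.3 tested the 4 human ratios against 0 and 1 mean per genotype and time over 23 mouse arrays, with Benjamini-Hochberg adjustment over all named genes and a threshold of 0.05. The empty-vector RNA was on the arrays themselves, so its own spread is not measured, and where repeats share a culture p-values measure only the spread between arrays. In simulated data, a log2 change of 2 was recovered for 52.2% of genes on the human arrays (4604 genes) and for 75% from 0 to 96 h in HET (331 genes). The noise was normal and independent between genes. Changes of 1, 2 and 4 were planted in 67, 67 and 66 human genes and in 20 mouse genes each. False calls were 8 in human and 0 in mouse. Recovery depends on these settings, so it is not the power of the real arrays.

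Replicate numbers were not taken as pairs: deviations of same-numbered arrays correlated at -0.17 to 0.51 over 10 pairs, 5 of them over 0.1. Alternatives were centring, quantile normalization, feature medians, array weights, each array left out, database number range, conflicting labels, the groups in the fit, values beyond 6 log2 units and a feature-level fit. The 33 members, the further lists and the motifs were chosen with earlier results of these data known. All 33 members are named, with all measured mouse genes of each further list and, where no human gene of a list passed, its 3 genes furthest from 0.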

Additional observations from a re-analysis of the deposited data

How the results depend on the processing

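Every human member kept its call, not past the threshold, under all alternatives except STAT3 under array weights, which counted 1 member. Of the 29 members 17 kept 1 sign under all 11 alternatives. For the day slope the count was 0 and ran from 0 to 2 with 1 array left out, and IFIT1 turned sign, at 3.54 per day without day 5 and -2.13 without day 2. In mouse, the count of members called from 0 h to 24 h in HET was 1, and 0 after quantile normalization, with array weights, with the lowest database numbers left out and with a fit to the compared groups alone; with 1 array left out it ran from 0 to 1, being 0 without HET 24 h replicate 1 (Irf1 adjusted p = 0.121). From 0 to 48 h in HET it was 1, and 0 with only the groups compared. From 0 to 96 h in HET it was 2, and 0 without the lowest range and with only the groups compared, 1 with the range as a factor, and 1 to 3 with 1 array left out; Igtp passed without HET 0 h replicate 1 or 3. In KO, Irf1 at 24 h passed, giving 1 in place of 0, without centring (adjusted p = 0.0108), after quantile normalization (0.0334), with array weights (0.0105), centring over named features (0.000910), the range as a factor (0.0247), values beyond 6 log2 units missing (0.0208) and in the feature-level fit, and the count was 0 to 1 with 1 array left out (HET 0 h replicate 2 or 3). In KO the count was 1 at 48 h with centring over named features (Irf1, adjusted p = 0.0427) and 2 at 96 h with array weights (Irf1 and Tap1). For 96 h against 24 and 48 h, the HET count was 1, 2 with centring over named features, where Irf1 (0.94) and Sp100 (1.24) were higher and Tap1 was not called, still 1 with the range as a factor, where Sp100 was higher (1.05, adjusted p = 0.0197) and Tap1 was not called (-0.94, adjusted p = 0.0866), and 0 to 1 with 1 array left out (0 without HET 24 h replicate 1, HET 48 h replicate 1 or HET 96 h replicate 1). The KO count was 0, 2 with array weights, 1 after quantile normalization, with centring over named features, without the lowest range, with only the groups compared and with values beyond 6 log2 units missing, and 0 to 1 with 1 array left out. KO minus HET at 0 h was 0 to 1 with 1 array left out (Irf1 was -0.97 with adjusted p = 0.0242 when HET 0 h replicate 3 was absent), and the genotype difference at 48 h was 1 with centring over named features and 0 to 1 with 1 array left out. The cause of these changes was not tested, apart from the smaller number of arrays where arrays were left out. Over all genes, the human count of 5 was 94 after quantile normalization, 262 with array weights, 342 with only the lower database range and 1 without centring. In mouse the count over all genes moved as well. From 0 to 24 h in HET it was 44, and 17 after quantile normalization and 10 with array weights. A fit to the compared groups alone called 0, 0 and 2 at 24, 48 and 96 h in HET, against 44, 28 and 85. For KO at 24 h it was 5, and 14 after quantile normalization, 35 with array weights and 37 with centring over named features.

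With the replicate number as a block no call changed for any member in any comparison: Irf1 in HET was -1.45, -1.92 and -1.63 at 24, 48 and 96 h (adjusted p = 0.0236, 0.00728 and 0.00853) and Tap1 -1.85 at 96 h (adjusted p = 0.0196). Taking the 3 arrays with conflicting labels as HET, or leaving them out, also changed no call. The shorter ISRE motif, with its last base left off, was found in 1 of the 4 member promoters, as the longer one was, and in 8.56% of all windows. With 4 human arrays and 2 to 4 mouse arrays a group, differences near 1 log2 unit were rarely recovered in simulation (2.99% of human genes, 5% from 0 to 96 h in HET).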
